A study of Mus musculus with 1505 samples.

Results

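Sst Chodl is a transcriptomic type (t-type) of cortical interneuron. Its 12 cells were compared here with the 260 cells of the 17 other t-types whose names begin with Sst, out of 1505 cells in the series. Membership follows the t-type in the sample labels, and all 272 cells were recorded at room temperature in acute slices of the primary motor cortex of adult mice. Each sample is the content of 1 neuron drawn into a patch pipette and amplified with Smart-seq2 (Patch-seq), and the measured value is the number of exonic reads per gene. Of the 110 Sst cells recorded at physiological temperature, 0 carried the Sst Chodl label, so those cells were not used. The mice were wild type or carried a Cre driver with the Ai9 reporter, which marks the cells chosen for recording, but the labels give neither the line nor the animal of a cell. Each group was therefore treated as 1 sample. No test was run and no p-value is given, the cells of a group are not replicates of it, and all intervals below cover counting error only. The t-types had been assigned from the same RNA, so that every difference between the groups is a description of them.

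Sst neurons are inhibitory neurons that release GABA together with the peptide somatostatin. Most of them are local and contact the dendrites of their neighbours. The Chodl type is known in mouse cortex as the sparse population of long-range projecting GABAergic cells, which make nitric oxide through neuronal nitric oxide synthase (Nos1) and express neuropeptide Y (Npy). Nitric oxide diffuses to nearby cells and activates soluble guanylyl cyclase, which produces cGMP. Chodl encodes chondrolectin, a membrane protein with a lectin domain.

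The start regions of the 3 marker genes and of Sst are shown, because the results turn on these genes. RefSeq places them on GRCm38.p6 at chr5:117866589-117866888 on the plus strand for Nos1, chr6:49822460-49822759 on the plus strand for Npy, chr16:78930698-78930997 on the plus strand for Chodl and chr16:23890795-23891094 on the minus strand for Sst. Each run holds 250 bases before the start of transcription and 50 bases after it, written 5′ to 3′. Capitals mark the cAMP response element (CRE) letters TGACG on either strand and the TATA box letters TATAAA on either strand.
Nos1: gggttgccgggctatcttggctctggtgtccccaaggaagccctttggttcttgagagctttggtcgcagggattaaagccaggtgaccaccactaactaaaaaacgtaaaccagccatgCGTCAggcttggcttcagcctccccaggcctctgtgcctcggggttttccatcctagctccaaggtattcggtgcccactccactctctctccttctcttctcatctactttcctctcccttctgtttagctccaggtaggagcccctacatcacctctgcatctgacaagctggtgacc
Npy: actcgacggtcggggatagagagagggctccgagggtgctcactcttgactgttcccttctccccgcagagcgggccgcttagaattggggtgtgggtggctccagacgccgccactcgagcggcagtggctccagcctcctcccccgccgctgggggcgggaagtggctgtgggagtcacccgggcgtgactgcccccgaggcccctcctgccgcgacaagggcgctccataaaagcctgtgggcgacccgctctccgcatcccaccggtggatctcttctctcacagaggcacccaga
Chodl: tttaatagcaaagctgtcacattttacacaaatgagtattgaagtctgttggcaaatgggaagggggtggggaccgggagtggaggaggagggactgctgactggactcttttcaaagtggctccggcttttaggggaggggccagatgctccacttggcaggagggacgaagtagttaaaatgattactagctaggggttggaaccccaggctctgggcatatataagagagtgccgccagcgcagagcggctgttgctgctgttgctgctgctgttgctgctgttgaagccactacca
Sst: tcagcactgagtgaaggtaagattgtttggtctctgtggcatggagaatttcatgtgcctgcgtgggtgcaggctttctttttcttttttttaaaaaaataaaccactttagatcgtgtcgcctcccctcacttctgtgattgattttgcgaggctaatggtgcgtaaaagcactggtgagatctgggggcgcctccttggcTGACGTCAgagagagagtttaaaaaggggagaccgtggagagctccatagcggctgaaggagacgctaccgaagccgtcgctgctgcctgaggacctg
The Sst region held the palindromic CRE TGACGTCA, in which TGACG reads on both strands. This palindrome occurred in 1.79% of 32817 promoter regions of the same length. The Nos1 region held TGACG in 1 place, on the minus strand, 130 bases before the start, and 20.8% of all regions held it on either strand. TATAAA was found in 0 of the 4 regions and in 13.6% of all regions. The letters searched for did not occur in the Npy and Chodl regions, and all of these matches are descriptions of the sequence.

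Summed over cells, the groups held 11305133 exonic counts in Sst Chodl and 431120927 in other Sst. The Sst Chodl cells held 16837 to 2513632 exonic counts (median 923392), against 2588 to 14227326 (median 1337694.5) in the other Sst cells. They had 1459 to 8612 detected genes (median 6400.5), against 1345 to 12564 (median 6897.5). Thinned to 200000 counts, the 9 Sst Chodl cells deep enough had a median of 6206 genes, and the 228 other Sst cells deep enough had a median of 5809. Intronic reads made up 8.05% to 64.5% of a Sst Chodl cell's counts (median 40.8%), against 2.55% to 69.1% (median 40.4%). Some of the 12 cells stood apart. Cell 2 had only 16837 counts. Cell 6 had 2856 genes with 33.2% of its reads on spike-in RNA, and cell 12 had 1459 genes with 50.02%. Cells 4 and 11 held 141603 and 105195 counts, and cell 11 had 10.8% intronic reads. The 12 cells came from 12 recording days, 5 in the earlier and 7 in the later of the recording periods, and 11 of these days also held other Sst cells (32 in all).

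The 3 markers were found together in 11 of 12 cells. Nos1 and Npy were read in all 12 cells and Chodl in all but cell 12. Somatostatin itself (Sst) was read in 12 of 12 cells and in 256 of 260 other Sst cells, and Gad1, which makes GABA, was also read in 12 of 12. Pvalb, Vip and Lamp5, which mark other interneuron families, were read in 2, 1 and 2 Sst Chodl cells. The highest of these was Vip in cell 11, at 684 CPM (a cell's exonic counts scaled to a common total without spike-ins).

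Nos1 lay between 627 and 3252 CPM in the Sst Chodl cells (median 1455), against 0 to 649 CPM (median 0) in the other Sst cells. All but 1 Sst Chodl cell lay above the highest of the 260 other cells, and the lowest, cell 6, was passed by a single Sst C1ql3_1 cell. In summed counts, Nos1 reached 1592 CPM in Sst Chodl (95% Poisson interval 1569 to 1615), against 9.17 CPM in other Sst (8.89 to 9.46), a log2 fold change of 7.29. Fold changes are log2 ratios of summed CPM after adding 1 CPM, Sst Chodl over other Sst. A read of Nos1 was found in 12 of 12 Sst Chodl cells (exact binomial 95% interval 73.5% to 100%) and in 15.8% of the other Sst cells. 10 other Sst cells, spread over 7 t-types, held at least 100 CPM. Nos1 spans chr5:117781032-117958840 in GENCODE M21 (GRCm38, plus strand). The RefSeq start shown above lies inside this span.

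Chodl ranged over 0 to 1055 CPM in the Sst Chodl cells (median 229), against 0 to 15.9 CPM (median 0) in the other Sst cells. The groups overlapped only through cell 12, which had 0 reads of Chodl, and cell 6, which had 8.87 CPM. The summed level was 403 CPM in Sst Chodl (391 to 415), against 0.0394 CPM in other Sst (0.0230 to 0.0631), a log2 fold change of 8.60. A read was found in 11 of 12 Sst Chodl cells (61.5% to 99.8%) and in 7 of 260 other Sst cells (2.69%). The fold change rests on 17 reads in the other Sst cells, so its size depends on the pseudocount (11.50 when 0.1 CPM was added). Chodl lies at chr16:78930948-78951733 on the plus strand.

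Npy was high in every Sst Chodl cell but was not restricted to them. It lay between 3555 and 14988 CPM in the Sst Chodl cells (median 10918), against 0 to 16835 CPM (median 919) in the other Sst cells. 10 of 12 Sst Chodl cells exceeded the 95th percentile of the other cells, and 0 exceeded their maximum. As many as 33 other Sst cells reached the lowest Sst Chodl value, 16 of them of the Sst Calb2 type. The summed level was 9435 CPM in Sst Chodl (9379 to 9492), against 1677 CPM in other Sst (1673 to 1681), a log2 fold change of 2.49. On the days that held both groups it was 1.98, just under the 4-fold threshold used for all genes. Npy lies at chr6:49822710-49829507 on the plus strand.

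Somatostatin did not separate the groups. Sst lay between 1266 and 4553 CPM in the Sst Chodl cells (median 2517), against 0 to 13951 CPM (median 1764) in the other Sst cells. Its log2 fold change was 0.22, from 2536 CPM in Sst Chodl (2506 to 2565) against 2180 CPM in other Sst (2175 to 2184). On the shared recording days the Sst Chodl cell was above the mean of the other Sst cells on 6 days and below it on 5.

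**Figure D1:**
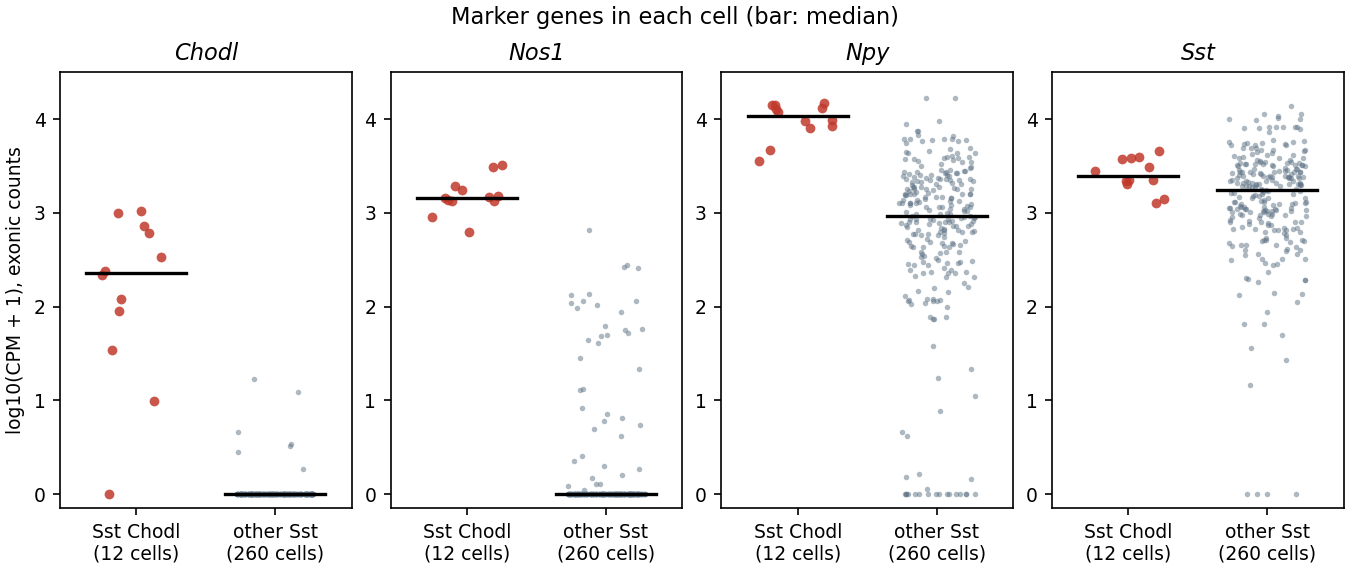
Level of 4 genes in each cell, as log10(CPM + 1) of exonic counts, with Sst Chodl cells (12, left) and other Sst cells (260, right). A point is 1 cell and the bar is the median. Nos1 and Chodl nearly separate the groups (627 to 3252 CPM of Nos1 in Sst Chodl), Npy is higher with overlap, and Sst overlaps throughout.

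Across all genes, 132 were higher in Sst Chodl and 296 were lower. A gene was taken as measured where the group with more of it reached 10 CPM and had a read in at least 0.5 of its cells, which held for 5619 genes, and as higher or lower where its log2 fold change was at least 2 or at most −2. The higher genes made up 2.35% and the lower genes 5.27% of those measured. These shares are the background for the counts of higher and lower genes in the gene lists below, where only measured members can be counted. The median log2 fold change over the measured genes was −0.05. All 132 higher genes and 294 of the 296 lower genes kept their direction when each cell had equal weight. Their choice by a large change in the same cells nearly fixes this. With equal weight, 105 of the 132 higher and 213 of the 296 lower genes stayed past the threshold. The intronic reads of the same cells gave the same direction for 96 of the 106 higher genes and 221 of the 252 lower genes that had at least 10 CPM of intronic reads.

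The 20 genes with the largest upward change included Chodl and Nos1. Netrin-1 (Ntn1), a guidance cue for growing axons, reached 284 CPM in Sst Chodl and 1.05 CPM in other Sst, a log2 fold change of 7.12. This sum rested largely on cell 12, which held 2283 CPM. Without that cell the log2 fold change was 5.81, and 7 of 12 Sst Chodl cells had a read. Ndst4, which modifies heparan sulphate chains, was more even, with a read in 10 of 12 Sst Chodl cells and 2.31% of other Sst cells. Its range was 0 to 395 CPM (median 117) in Sst Chodl, against 0 to 45.3 CPM (median 0) in other Sst, and all 10 cells with a read lay above the highest other Sst cell (log2 fold change 6.97). Outside these 20 genes, Ptn, which encodes the growth factor pleiotrophin, was read in 12 of 12 cells at 95.9 to 2785 CPM (median 822), against 0 to 659 CPM (median 0.501) in other Sst. Its log2 fold change was 4.34, and it was higher on all 11 shared days.

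Most other genes among the 20 were detected in fewer cells. Adgrg6, an adhesion G-protein-coupled receptor, lay at 0 to 442 CPM (median 2.98) in Sst Chodl, against at most 2.94 CPM in other Sst cells. Its log2 fold change was 6.61, and 5.46 without cell 5. Trib2 (pseudokinase), Slc4a4 (sodium bicarbonate cotransporter) and Rasgef1b (exchange factor for small G proteins) had log2 fold changes of 6.51, 5.08 and 4.84. Rasgef1b was the only one of these 3 with a read in all 12 cells (1.13 to 1660.45 CPM in Sst Chodl, 0 to 324 CPM in other Sst). Colec12, Gdpd2, Adamts3, Bace2, Pou3f2, Vwc2l, Kctd4, B3gat1 and Inpp4b were also in the set, at log2 fold changes of 4.67 to 6.37. Of these, B3gat1, a glucuronyltransferase that helps build the HNK-1 carbohydrate, was read in 10 of 12 Sst Chodl cells and the rest in 6 to 8. Leaving out 1 cell moved 5 of these genes by over 1.5-fold, and all stayed past the threshold. The log2 fold changes were then 5.57 for Colec12 and 4.02 for Inpp4b without cell 5, 4.36 for Bace2 without cell 3, 4.33 for Pou3f2 without cell 9 and 4.17 for Vwc2l without cell 10.

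The genes with the largest downward changes had almost no reads in Sst Chodl. Reelin (Reln), a secreted protein of many Sst neurons, had 2 reads in all 12 Sst Chodl cells together, both in cell 5 (0 to 1.27 CPM, median 0), against 0 to 3316 CPM (median 412) in other Sst. The summed level was 0.177 CPM in Sst Chodl (0.0214 to 0.639), against 543 CPM in other Sst (541 to 546), which is 3072-fold lower with a counting interval of 850 to 25368. Calbindin (Calb1) was read in cells 2 and 4 only, and reached 2.30 CPM in Sst Chodl, against 905 CPM in other Sst (log2 fold change −8.10). Without cell 4 its log2 fold change was −9.70. Calb1 was also near 0 in a few other t-types, with 0 CPM in Sst Tac2 and 0.145 CPM in Sst C1ql3_2, whereas Reln had at least 13.1 CPM in every other t-type.

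Among the other genes of the 12 largest downward changes were Csmd1, Col19a1, Thsd7a, Pcdh11x, Galntl6, Kcnf1, Slc30a3, Cdh7 and Cdh9, at log2 fold changes of −7.70 to −6.97. Pcdh11x, Cdh7 and Cdh9 encode cadherin family adhesion proteins. Col19a1, a collagen, had 3.804 CPM in Sst Chodl and 869 CPM in other Sst, and was read in 4 of 12 against 81.2% of cells. Slc30a3, the vesicular zinc transporter ZnT3, had 0.177 CPM in Sst Chodl and 158 CPM in other Sst, where 82.3% of cells held a read. With 2 reads in Sst Chodl it was 893-fold lower (counting interval 247 to 7374). For Thsd7a and Cdh7 the 12 Sst Chodl cells held a single read each. Cells 3, 11, 2 and 4 held reads of 8, 5, 4 and 3 of the 12 genes, and the other cells of 0 to 2. Without cell 9 the log2 fold change of Col19a1 was −8.16. Several of these genes were also near 0 in another t-type. Thsd7a had 0 CPM in Sst Tac2, Cdh7 0 CPM in Sst Penk and Kcnf1 0 CPM in Sst Pvalb Etv1. Cdh9 had 0.0566 CPM in Sst Etv1, and Col19a1 had 0.947 CPM in Sst Th_1, below its level in Sst Chodl. Csmd1, Pcdh11x, Galntl6 and Slc30a3 had at least 51.8, 9.95, 120 and 64.9 CPM in every other t-type.

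**Figure D2:**
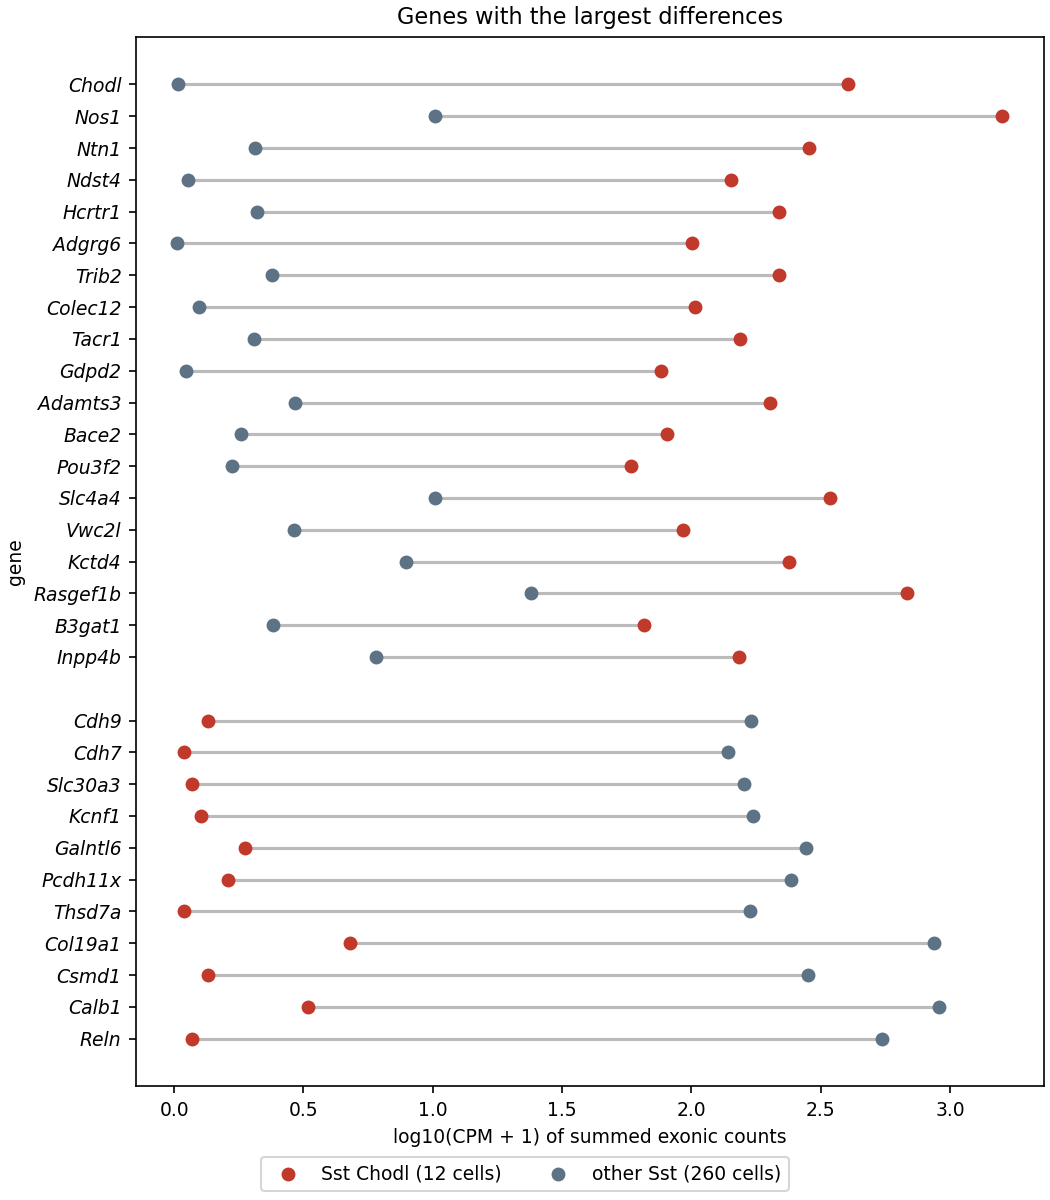
Summed exonic level, as log10(CPM + 1), of 19 of the 20 genes with the largest upward and 11 of the 12 with the largest downward change. Each line joins Sst Chodl (red) and other Sst (blue-grey). Reln, at the bottom, has 0.177 CPM in Sst Chodl and 543 CPM in other Sst.

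In the nitric oxide and cGMP list, 4 of 26 genes were higher (Nos1, Slc7a3, Gucy1a1, Pde1a), 1 was lower (Slc7a1) and 12 were measured. Slc7a3, which carries arginine, the substrate of nitric oxide synthase, into cells, had 559 CPM in Sst Chodl and 87.2 CPM in other Sst (log2 fold change 2.67). Slc7a1, another arginine carrier, went the other way, with 11.8 CPM in Sst Chodl and 66.2 CPM in other Sst (−2.40, and −3.13 without cell 10). Gucy1a1, a subunit of soluble guanylyl cyclase and thus of the nitric oxide receptor, had 218 CPM in Sst Chodl and 19.2 CPM in other Sst (3.44). Its range was 0 to 630 CPM (median 72.5) in Sst Chodl, against 0 to 462 CPM (median 0) in other Sst, and the groups overlapped. The partner subunit Gucy1b1 had a log2 fold change of 1.19, and −0.79 without cell 3. Pde1a, a phosphodiesterase that breaks down cyclic nucleotides, had 776 CPM in Sst Chodl and 180 CPM in other Sst (2.10, and 1.59 without cell 3, under the threshold). The median over the 20 genes of this list with at least 10 CPM in either group was −0.16, against −0.11 over the 11162 such genes in the table.

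Of 21 neuropeptide genes, 3 were higher (Npy, Penk, Crhbp), 1 was lower (Pdyn) and 11 were measured (median −0.03 over 16 genes). Penk encodes the enkephalin precursor. It lay between 0 and 2130 CPM in Sst Chodl (median 169), against 0 to 2215 CPM (median 0) in other Sst, with a log2 fold change of 3.43. Cell 10 held the 2130 CPM, and the log2 fold change was 2.18 without it. Crhbp, the binding protein of corticotropin-releasing hormone, was read in 12 of 12 Sst Chodl cells at 567 to 7279.9 CPM (median 2748), against 0 to 8014 CPM (median 351) in other Sst (2.15). Without cell 1 its log2 fold change was 1.90, under the threshold. Pdyn, the dynorphin precursor, had 52.98 CPM in Sst Chodl and 685 CPM in other Sst (−3.67, and −5.04 without cell 5). Among the 12 genes of peptide processing, of which 11 were measured, Pcsk2 alone was higher and 0 were lower. This prohormone convertase had 488 CPM in Sst Chodl and 62.2 CPM in other Sst (2.95) and was read in 12 of 12 Sst Chodl cells.

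Receptors for peptides and modulators had 7 higher genes and 1 lower gene among 38, of which 12 were measured. Over all measured genes the shares were 2.35% higher and 5.27% lower. For a higher gene the rule asks for reads among the 12 Sst Chodl cells only, and for a lower gene among the 260 other cells. Of the 24 members with at least 10 CPM in either group, 12 had a positive and 12 a negative log2 fold change (median −0.04). The split of 7 to 1 therefore depends on the rule. The orexin receptor gene Hcrtr1 lay between 0 and 535 CPM in Sst Chodl (median 220), against 0 to 57.96 CPM (median 0) in other Sst. All 9 Sst Chodl cells with a read lay above the highest other Sst cell, and the log2 fold change was 6.70. Tacr1, which encodes the substance P receptor, was read in 7 of 12 Sst Chodl cells and 4.62% of other Sst cells, at 154 CPM in Sst Chodl and 1.04 CPM in other Sst (6.24). Other higher members, chosen for mention after their values were seen, were the muscarinic receptor Chrm2 (3.91), the adrenergic receptors Adra1b (3.33) and Adra1a (2.73), and the dopamine receptor Drd1 (3.22), given as log2 fold changes. The cannabinoid receptor Cnr1 was the lower one, with 0.442 CPM in Sst Chodl and 172 CPM in other Sst (−6.91), and its 5 reads came from 1 cell. The nicotinic subunit Chrna4 was not measured by the rule. It had 0 reads in Sst Chodl and 86.1 CPM in other Sst, which is at least 324-fold lower if 3 counts are taken as the floor for all 12 cells together. Its intronic reads went the other way (0.83).

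GABA-A and GABA-B receptor subunits differed in both directions, with 2 of 15 higher (Gabra2, Gabrg1), 4 lower (among them Gabra3, Gabrb2 and Gabbr2) and 10 measured (median −1.41 over 14 genes). Gabrb2, a beta subunit common in adult cortex, had 0.177 CPM in Sst Chodl and 109 CPM in other Sst. With 2 reads in Sst Chodl it was 617-fold lower (counting interval 171 to 5091). Gabrb2 was also at 0 CPM in Sst Htr1a (6 cells) and Sst Myh8_2 (3 cells). Gabra3 had 0.354 CPM in Sst Chodl and 98.2 CPM in other Sst (−6.20). In contrast Gabra2, an alternative alpha subunit, was read in 11 of 12 Sst Chodl cells at 0 to 967 CPM (median 202), against 0 to 1599.7 CPM (median 0) in other Sst (2.67). Gabrg1, a gamma subunit, had 223 CPM in Sst Chodl and 8.14 CPM in other Sst (4.61).

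GABA synthesis and transport held 0 higher genes among 9, of which 8 were measured. Gad1 lay between 281 and 5749 CPM in Sst Chodl (median 2438), against a median of 1055 CPM in other Sst (log2 fold change 1.16).

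Glutamate receptor genes gave 1 higher (Cnih3) and 1 lower (Gria3) among 14 AMPA receptor genes, of which 7 were measured. They gave 1 higher (Grik4) and 1 lower (Grm5) among 17 NMDA, kainate and metabotropic receptor genes, of which 12 were measured. Cnih3, an auxiliary protein of AMPA receptors, had 228 CPM in Sst Chodl and 25.5 CPM in other Sst (3.11). In contrast, the AMPA receptor subunit Gria3 had 91.5 CPM in Sst Chodl and 480 CPM in other Sst (−2.38). By t-type, Cnih3 also reached 181 CPM in Sst Penk (3 cells) and 155 CPM in Sst Pvalb Etv1 (8 cells). Gria3 was lower than in Sst Chodl in Sst Th_1 (63.9 CPM) and Sst Th_3 (35.8 CPM), and higher in each of the other t-types. The kainate receptor subunit Grik4 had 30.8 CPM in Sst Chodl and 2.01 CPM in other Sst (3.40, and 2.59 without cell 10). Grm5, the receptor mGluR5, lay between 0 and 28.5 CPM in Sst Chodl (median 0), against 0 to 1609 CPM (median 176) in other Sst (−5.51). The 2 medians were 0.35 over 12 AMPA receptor genes and −0.31 over 14 other glutamate receptor genes.

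Of 38 potassium channel genes, 2 were higher (Kcnn3, Kcnt2), 5 were lower (Kcna1, Kcnab1, Kcnq3, Kcnq5, Kcnj9) and 24 were measured. Over all measured genes the shares were 2.35% higher and 5.27% lower. The median over the 35 channel genes with at least 10 CPM in either group was −0.85, against −0.11 over the 11162 such genes in the table. A negative log2 fold change was found for 28 of the 35. The share of negative values over all genes is not given here, so this count has no background. Kcna1, which encodes the Kv1.1 channel, had 0 reads in the 12 Sst Chodl cells, against 95.3 CPM (94.3 to 96.2) in other Sst, where 62.3% of cells had a read. With the same floor of 3 counts that is at least 359-fold lower. For the share of cells, 0 of 12 allows up to 25% if 3 cells are taken as the floor, and up to 26.5% by the exact binomial interval. The intronic log2 fold change of Kcna1 was −0.12. Kcnq3, a subunit of the M current, had 16.5 CPM in Sst Chodl and 96.8 CPM in other Sst (−2.48), and −6.14 without cell 7. Kcnab1 had a log2 fold change of −3.25 (−5.60 without cell 1) and Kcnj9 one of −3.71 (−5.38 without cell 7). Of the higher genes, Kcnn3 had 3.13 (2.38 without cell 1) and Kcnt2 had 2.05 (1.73 without cell 7, under the threshold). Sodium, calcium and HCN channels had 2 higher genes (Cacna1e, Trpc4) and 0 lower among 30, of which 21 were measured. The median was 0.17 over 26. Cacna1e, the R-type calcium channel, lay between 0 and 1778 CPM in Sst Chodl (median 915), against 0 to 1198 CPM (median 83.7) in other Sst (2.29).

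Among 30 interneuron transcription factor genes, of which 14 were measured, 1 was higher (Sp9) and 3 were lower (Npas1, Npas3, Dlx6os1). The median was −0.70 over 20. Npas1 was read in 2 of 12 Sst Chodl cells and 70.8% of other Sst cells at 0.265 CPM in Sst Chodl and 142 CPM in other Sst. With 3 reads in Sst Chodl it was 534-fold lower (counting interval 183 to 2589). Npas1 was also at 0 CPM in Sst Pvalb Calb2 (26 cells) and Sst Pvalb Etv1 (8 cells). Dlx6os1, a noncoding RNA of the Dlx locus, had a log2 fold change of −5.63, and −6.28 without cell 11. Lhx6 and Sox6, which mark interneurons from the medial ganglionic eminence, had log2 fold changes of 0.34 and 0.81. Calcium-binding protein genes gave 0 higher and 2 lower (Calb1, Cabp1) of 15, with 8 measured. Of 11 genes in the names of the other Sst types, C1ql3, Crhr2, Hpse, Myh8 and Th had 0 reads in the Sst Chodl cells. The low levels of C1ql3 (0.796 CPM) and Myh8 (2.45 CPM) over all other Sst cells leave little to compare. Th, which makes the catecholamine precursor L-DOPA, had 62.8 CPM in other Sst, and was at least 237-fold lower in Sst Chodl. That level came mainly from Sst Th_3 (1131 CPM) and Sst Th_1 (131 CPM), and Th was also at 0 in 10 other t-types, Sst Calb2 among them. Hpse had 70.8 CPM in other Sst, was at least 267-fold lower in Sst Chodl, and was also at 0 in 9 other t-types. Penk, described above, was the only higher gene of these 11, of which 2 were measured, and 0 were lower by the rule.

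**Figure D3:**
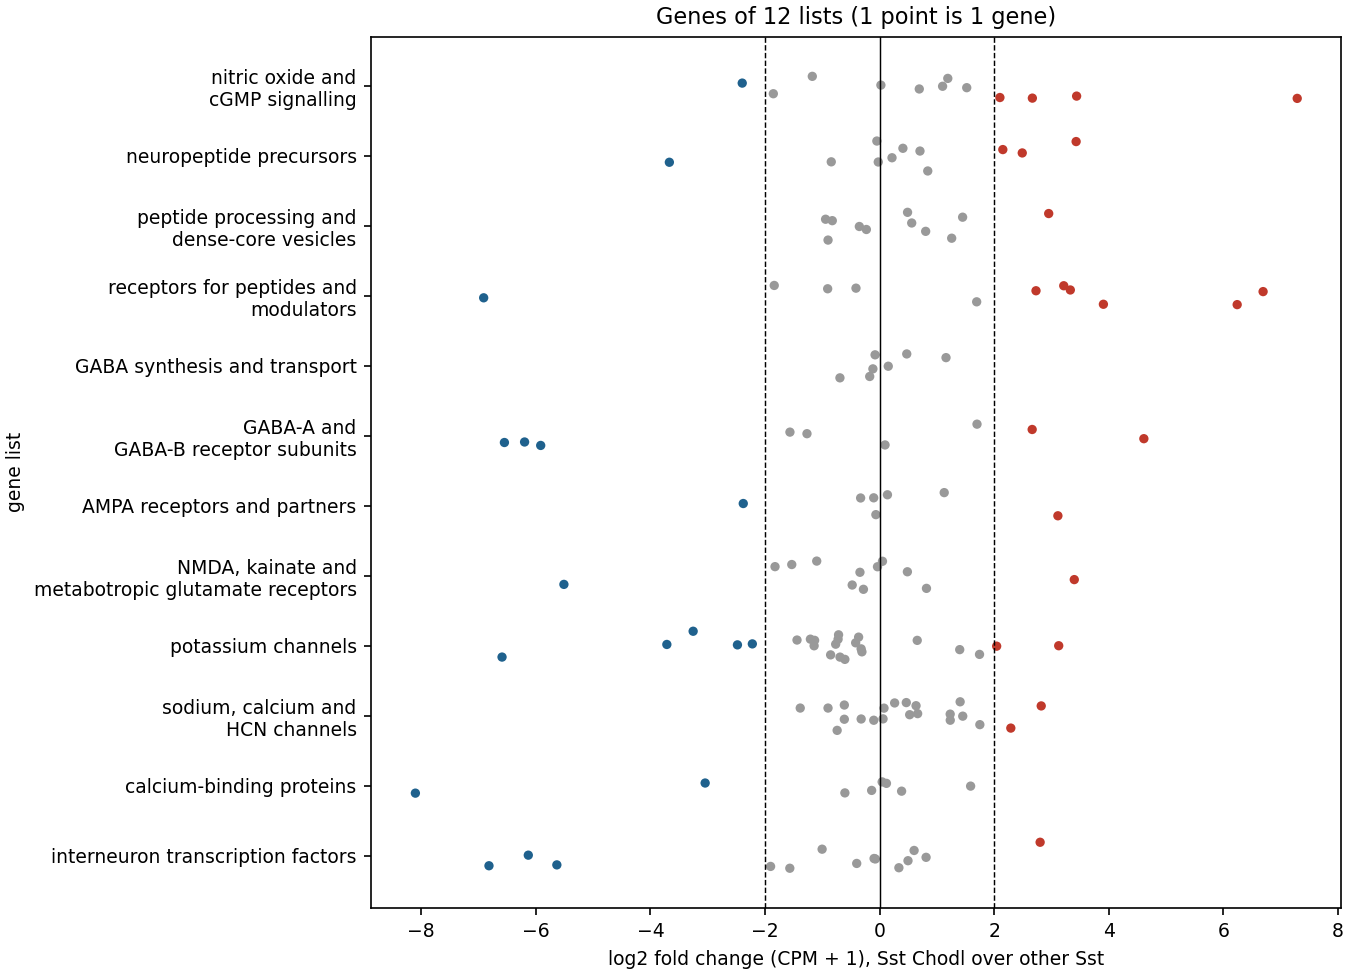
Log2 fold change (CPM + 1, Sst Chodl over other Sst) of measured genes of 12 lists, 1 point per gene reported here, with dashed lines at −2 and 2. Red points are higher and blue points lower in Sst Chodl. Nos1 is the point at 7.29 in the top row, and receptor lists hold points at both ends.

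Compared by t-type, Sst Chodl stood first for each of the 20 upward genes, which their choice by the largest change over the other types nearly fixes. The t-type next in order had 25.4 CPM of Nos1 (Sst Pvalb Calb2), 0.111 CPM of Chodl (Sst Crhr2_1), 57.1 CPM of Ntn1 (Sst Myh8_2, 3 cells), 20.5 CPM of Hcrtr1 (Sst C1ql3_2) and 7.16 CPM of Tacr1 (Sst Th_3). For Npy the order was 9435 CPM in Sst Chodl, 5000 CPM in Sst Penk (3 cells), 3178 CPM in Sst Calb2 (61 cells) and 2865 CPM in Sst Crhr2_2 (12 cells). The place of Sst Penk rests on 1 cell with 6189 CPM, since its other cells had 120 and 852 CPM. For Sst it was 4522 CPM in Sst Calb2, 3379 CPM in Sst Th_3, 2690 CPM in Sst Crhr2_2 and 2536 CPM in Sst Chodl. These orders are of sums over the cells of a type and carry no spread over animals.

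**Figure D4:**
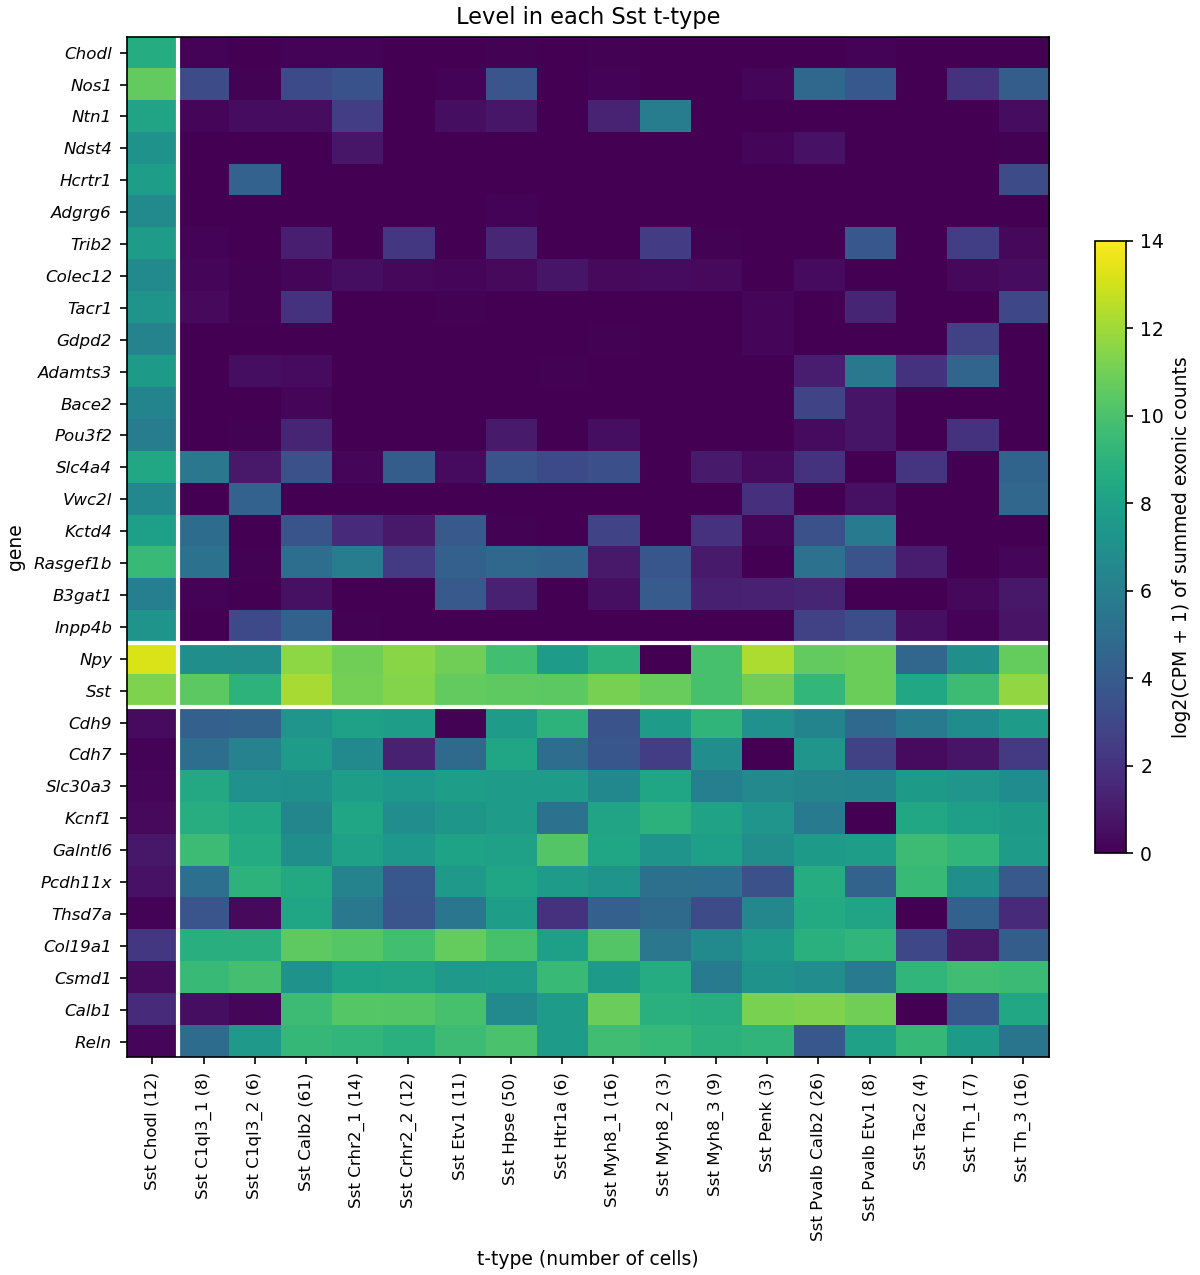
Level of 19 of the 20 upward genes, of Npy and Sst, and of 11 of the 12 downward genes in the 18 Sst t-types, as log2(CPM + 1) of summed exonic counts, with the number of cells in brackets. The Sst Chodl column, at the left, is the brightest for each upward gene. It is dark for the downward genes, of which several are also dark in other t-types. Among these are Calb1 and Thsd7a in Sst Tac2, Cdh7 in Sst Penk and Kcnf1 in Sst Pvalb Etv1 (0 CPM each).

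The mean profile of Sst Chodl was compared with those of the 14 other t-types with at least 5 cells, over the 1000 most variable genes chosen by the rule of the study. Its nearest type was Sst Calb2, at a correlation distance of 0.125. For comparison, the nearest neighbour lay at 0.0345 to 0.124 for the 14 other types, and at 0.0686 to 0.112 for those with 11 to 16 cells. Its median distance to the others was 0.173, against 0.107 to 0.171. Neither distance stayed the highest in every setting, as given below. Each of the 12 Sst Chodl cells correlated more with the mean of the other 11 than with the mean of any other type. By the same measure 157 of 250 other Sst cells (62.8%) were nearest to their own type, and 0 of them were nearest to Sst Chodl. The t-types had been assigned from the same RNA, by correlation with reference types. These counts are therefore descriptions and lend the labels no independent support. With intronic counts 9 of the 12 cells were nearest to their own type. Cells 6 and 12 were then nearest to Sst Myh8_3 and cell 11 to Sst Th_3. With exonic counts, a cell's margin was taken between the correlation with its own type and that with the best other type. This margin was smallest in cell 6 (0.0111) and in cell 12 (0.0180), the cells with the fewest genes. Of the genes with the largest changes, 3 of the 20 upward and 10 of the 12 downward genes were among the 1000 variable genes.

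The 12 Sst Chodl cells differed widely among themselves. They held a read of 3 to 19 of the 20 upward genes (median 15), against 0 to 16 (median 1) in the other Sst cells. Cells 12, 11 and 6 had 3, 6 and 8 of the 20, and they had 1459, 5161 and 2856 genes. Cell 12, without a read of Chodl, had the highest Nos1 (3252 CPM) and the highest Npy (14988 CPM) of the group. Cell 11 was the only one with Vip and held 105195 counts. Penk was at 0 CPM in cells 6 and 12 and at 2130 CPM in cell 10, and the lowest Npy was that of cell 9.

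**Figure D5:**
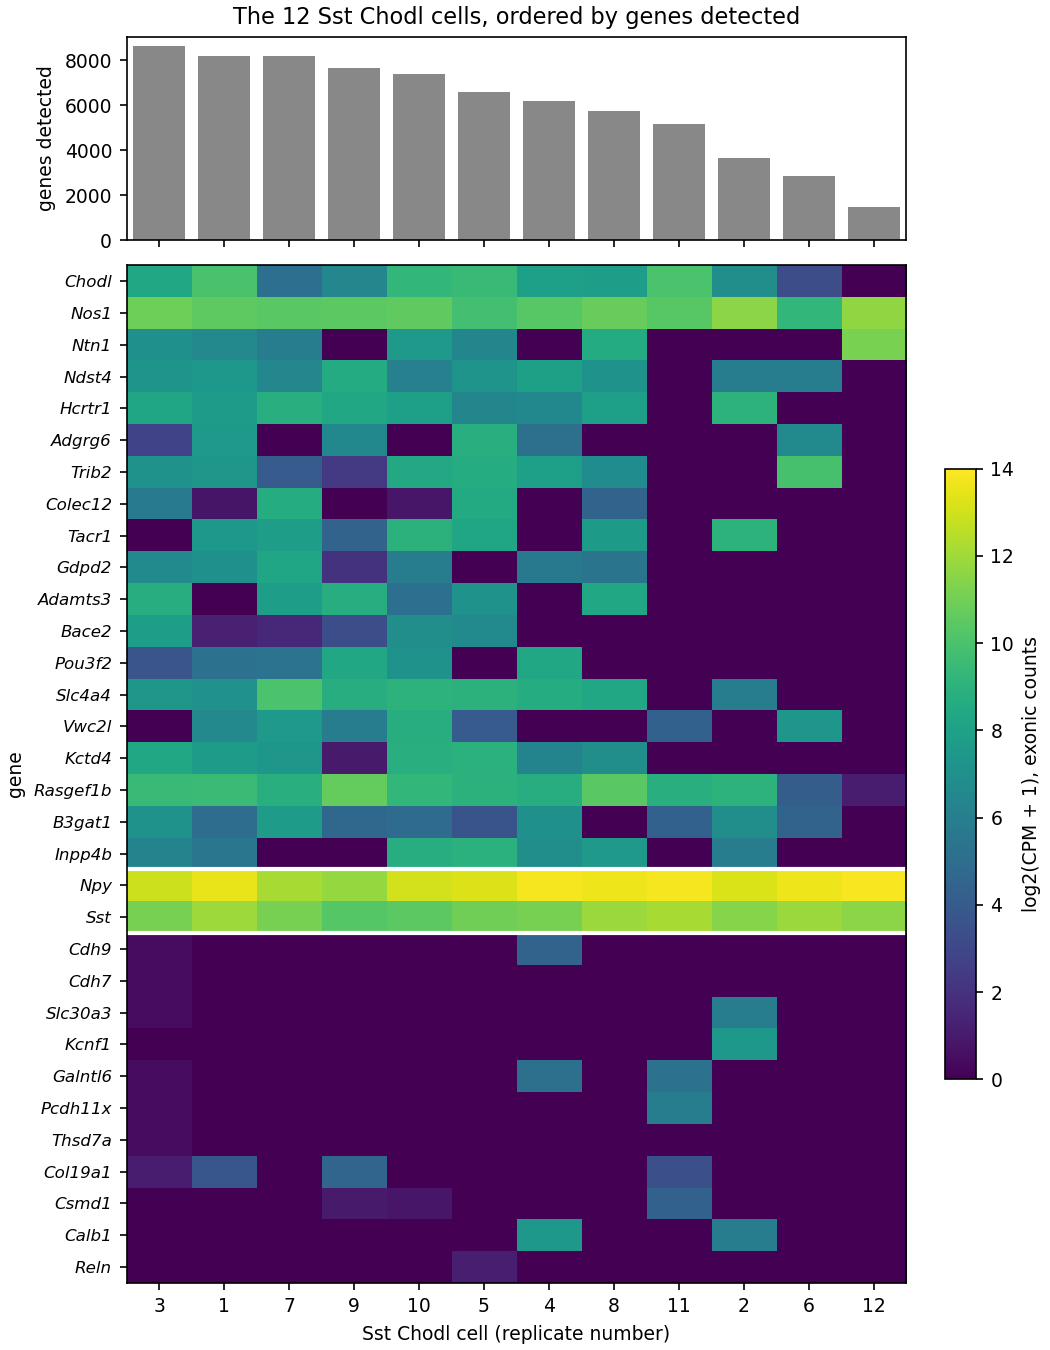
The 12 Sst Chodl cells, ordered by detected genes (bars, 8612 at the left to 1459 at the right), and the level of 19 upward genes, Npy and Sst, and 11 downward genes in each, as log2(CPM + 1). Nos1, Npy and Sst are bright in every cell, whereas the other upward genes thin out in the cells with few genes.

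On the 11 days that held both groups, Nos1 and Npy were above the mean of that day's other Sst cells on all 11 days, and Chodl on 10 with a tie at 0 for cell 12. Reln was lower on 9 days and Slc30a3 on 10, and neither was higher on any day. Of the 32 genes with the largest changes, 26 had the direction of the sums on more than 0.5 of the days. Their choice as the largest changes in the same cells favours this, so the count is a description. On 4 of the 11 days the other group was a single cell.

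Markers of other cell classes were read in both groups. The 8 microglia markers summed to 0 to 5226 CPM in Sst Chodl cells (median 436), against 0 to 14715 CPM (median 362) in other Sst, with 0 of 8 at 0 over the Sst Chodl cells. The 8 astrocyte markers summed to 0 to 976 CPM (median 77.1), against 0 to 2273 CPM (median 9.47), and 4 of 8 were at 0 in Sst Chodl (Aqp4, Gja1, Gfap, Gjb6). The 7 oligodendrocyte markers summed to 1.04 to 5187 CPM (median 351), against 0 to 18967 CPM (median 290), with Cldn11 and Opalin at 0. All 5 oligodendrocyte precursor markers were at 0 in Sst Chodl, against 26.1 CPM as a sum in other Sst. The 7 endothelial and mural markers summed to 13.3 CPM over the Sst Chodl cells and 7.49 CPM over the other Sst cells. The 8 glutamatergic markers summed to 0 to 950 CPM (median 172), against 0 to 2222 CPM (median 367), and 4 of 8 were at 0, among them Slc17a6, Neurod2 and Neurod6. Slc30a3, described above, is also a member of this list and was its only lower gene. The highest microglia sum was that of cell 6 and the highest oligodendrocyte sum that of cell 12, and the part of such RNA in the differences was not tested. Without the thin libraries, meaning cells under 200000 counts or 3000 genes, a choice made after seeing the data, 7 Sst Chodl and 224 other Sst cells remained. They gave 194 higher and 349 lower genes. All 20 upward and 12 downward genes stayed past the threshold, which their choice as the largest changes nearly fixes.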

How the data were processed

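Neurons were patched at room temperature, and the RNA drawn into the pipette was amplified and sequenced with Smart-seq2. Per the study's methods and the labels, the authors demultiplexed with bcl2fastq 2.20, aligned to mm10 with STAR 2.5.4b and deposited raw exonic and intronic read counts per gene, without molecular identifiers. The table held 42381 genes and 85 spike-in rows, which took 4.07% of the counts and were left out. Of its 1329 columns, 9 matched no sample and were not used. T-types were those the authors had assigned to the cells by their nearest reference cluster, and the labels give the group of each cell.

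The counts of each group's cells were added up and scaled to their total (CPM). Fold changes are log2 ratios after adding 1 CPM. Intervals are exact Poisson (sums) or exact binomial (shares) at 95%, and cover counting error only. The labels name no animal, so no test was run. The calculations ran in Python 3.11.15 with pandas 2.3.3, numpy 2.4.6, matplotlib 3.10.9 and scipy 1.17.1, and the procedure was tested on simulated data. No doublet search was made, since each sample is 1 patched cell.

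The members and the 22 gene lists were chosen with earlier results of these data known. Genes were named by a rule. Among measured genes that reached 50 CPM in either group and kept their direction with equal weight per cell, these were the 20 largest upward and 12 largest downward changes. Added to them were Chodl, Nos1, Npy, Sst and up to 4 members of each list by absolute log2 fold change with at least 10 CPM in either group. Other list members were named after their values were seen. Alternatives were equal weight per cell, a pseudocount of 0.1 CPM, other Sst without the Sst Pvalb types, shared days, each recording period, cells with at least 500000 counts, thinning to 200000 counts, median-of-ratios scaling, intronic counts, 2 other filters, 500 variable genes and each Sst Chodl cell left out. Leaving out thin libraries, and days with at least 2 other Sst cells, were chosen after seeing the data. A few genes of the lists and of the rule are counted but not reported here. Cells recorded at physiological temperature were not used here.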

Additional observations from a re-analysis of the deposited data

How the results depend on the processing

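Chodl, Nos1 and Npy kept their direction under every alternative run and stayed past the threshold, except Npy on the days that held both groups (1.98). Intronic counts gave smaller log2 fold changes of 3.89 for Chodl and 5.50 for Nos1. With 1 Sst Chodl cell left out, the log2 fold change lay between 8.27 and 8.73 for Chodl, between 7.16 and 7.39 for Nos1 and between 2.42 and 2.57 for Npy. The counts moved more. Cells of the earlier recording period gave 246 higher and 670 lower genes, cells of the later period gave 655 lower genes, and no filter on low genes gave 881 higher and 2606 lower genes, against 132 and 296. With 1 cell left out there were 108 to 135 higher and 284 to 383 lower genes. Intronic counts shared 46 of the 132 higher and 72 of the 296 lower genes. The 20 upward and 12 downward genes stayed past the threshold in all alternatives of cells, periods, weights and depth. Their choice as the largest changes in these same cells nearly fixes this. With intronic counts 16 of the 20 and 11 of the 12 stayed past it, and Gdpd2, Kctd4, Pou3f2 and Kcnf1 were among those that did not. For Kctd4, Pou3f2 and Kcnf1 the intronic log2 fold change was 0, the value of a gene without intronic reads in either group. A gene without such reads cannot be checked in this way.

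Of 102 genes named by rule, 11 of 2346 values changed sign, 349 more were counted as moved in size and 1986 as the same. As many as 80 of these genes lay past the threshold, where a change of sign is unlikely. Cabp7, read in 1 Sst Chodl cell, had −1.22 in the later period alone, −1.27 with intronic counts, and −1.27 without cell 5 to 3.07 without cell 3. Cacng4, read in 2 cells, had −1.53 in the later period alone, and −0.59 without cell 5 to 2.34 without cell 3. With intronic counts the log2 fold change was −0.0056 for Gdpd2, 0.54 for Pde1c, 0.83 for Chrna4, 1.47 for Scn4b, 0.58 for Epha4 and −1.51 for Fosl2. The cause was not tested. Sst Calb2 remained the nearest type, at 0.123 with 500 genes and 0.109 with intronic counts. With 500 genes this nearest distance was the highest of the types. The median distance of Sst Chodl (0.158) was then below those of Sst C1ql3_1 (0.160), Sst C1ql3_2 (0.161) and Sst Th_1 (0.173). With intronic counts its median (0.151) was the highest, but its nearest distance was below that of Sst Myh8_3 (0.114). The replicate numbers only name cells and pair nothing, and the groups were set side by side within recording days instead. With 12 cells and no animal in the labels, spread between animals is unknown, and cells with few genes limit what a read count of 0 can show.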

Other observations

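Among 41 genes of neurofilaments and axon growth, of which 19 were measured, Ptn was the only higher gene and Robo2, Plxna4 and Cntn6 were lower. Cntn6, a contactin cell adhesion protein, had 1.77 CPM in Sst Chodl and 103 CPM in other Sst (log2 fold change −5.23, and −6.26 without cell 4). It was also at 0 CPM in Sst Myh8_3 (9 cells). Robo2, a receptor of Slit guidance cues, had 27.2 CPM in Sst Chodl and 191 CPM in other Sst (−2.77). Plxna4, a semaphorin co-receptor, had 12.2 CPM in Sst Chodl and 67.2 CPM in other Sst (−2.37, and −4.06 without cell 9). The growth cone protein gene Gap43 lay between 0 and 1602 CPM in Sst Chodl (median 229), against 0 to 2072 CPM (median 72.7) in other Sst, with a log2 fold change of 0.85.

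Of 16 activity-induced genes, of which 9 were measured, Fosl2 was higher and Arc, Fosb and Egr4 were lower. The median was −1.04 over 14 genes. The 3 lower genes were close to the threshold, at −2.08, −2.07 and −2.04. Without cell 5 the value of Arc was −1.87, and without cell 3 those of Fosb and Egr4 were −1.72 and −1.73. Without cell 3 Arc had −3.41, and without cell 12 Egr4 had −3.13. Fosl2 had 69.4 CPM in Sst Chodl and 11.6 CPM in other Sst (2.48). Fos itself had 848 CPM in Sst Chodl and 1153 CPM in other Sst (−0.44). In the peptide processing list, Pam, which amidates peptides, was read in 12 of 12 Sst Chodl cells at 41.4 to 2909.9 CPM (median 1886), against a median of 622 CPM in other Sst (1.45, under the threshold).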
